A study of Mus musculus with 4 samples.

Results

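The miR-183, miR-96 and miR-182 cluster is a group of 3 miRNA hairpins made from 1 transcript, and its members were followed across mouse intestinal crypts, villi and organoids. The members were taken by name: mmu-miR-183-5p, mmu-miR-183-3p, mmu-miR-96-5p and mmu-miR-182-5p, which are 4 of the 1900 miRNA probes on the arrays. No measured value entered that choice. The arrays carried total RNA of 4 mouse samples, each labelled with Cy5 and hybridised to 1 array. These were villus, crypt, and organoids raised from crypts of the small intestine, after 1 day and after 5 days of culture. Organoids are epithelial structures that form in culture from crypt stem cells. The sources used here do not give mouse strain, age, culture medium or the way villus and crypt cells were separated.

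Each group had 1 array, so no difference has a replicate check and no p-value was computed. Day 5 organoids had a slide of their own, while the other 3 arrays shared 1 slide, so the age of these organoids and their slide cannot be told apart. The sample labels were compared with marker miRNAs: all 8 epithelial miRNAs listed were detected on all 4 arrays, and the mesenchymal and muscle list was bright only on the villus array. In bulk RNA, fewer cells of a type and less of a miRNA per cell cannot be told apart.

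Mature miRNAs are cut from hairpins, and each guides a silencing complex to messenger RNAs that pair with its seed, the bases near the 5′ end. The miR-183 cluster is best known from sensory cells of the eye and ear, and its miRNAs are raised in many epithelial tumours. In human gastric cancer cells, the cluster's transcript has been reported to respond to beta-catenin with TCF/LEF factors, the nuclear arm of Wnt signalling. Wnt signalling maintains stem cells at the base of intestinal crypts and weakens towards the villus. Because 1 transcript carries all hairpins, a change in its transcription would move all members, whereas processing and stability can separate them.

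The mature sequences are shown because the members' seeds differ, which bears on what each pairs with. They are RefSeq sequences on mouse build GRCm38.p6, 5′ to 3′, with the seed (bases 2 to 8) in capitals.
miR-183-5p: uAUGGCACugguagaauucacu
miR-183-3p: gUGAAUUAccgaagggccauaa
miR-96-5p: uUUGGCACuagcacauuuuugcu
miR-182-5p: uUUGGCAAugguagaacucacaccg

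No pair of members had the same seed. The seeds of miR-96-5p and miR-182-5p were identical at 6 of 7 positions, as were those of miR-183-5p and miR-96-5p, and those of miR-183-5p and miR-182-5p at 5 of 7. Over their whole length, aligned from the 5′ end without gaps, miR-183-5p and miR-182-5p were identical at 18 of 22 positions, miR-183-5p and miR-96-5p at 13 of 22, and miR-96-5p and miR-182-5p at 12 of 23. Probe sequences are not part of the sources used here, and cross-hybridisation between members was not tested. Of other mouse miRNAs in the reference table, miR-1271-5p from chromosome 13 had the same seed as miR-96-5p, and the arrays held no probe of that name.

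All hairpins lie on the minus strand of chromosome 6, inside the long noncoding RNA gene Mirc35hg (chr6:30158640-30174125). Along the direction of transcription, Mir183 (chr6:30169668-30169737) comes first, Mir96 (chr6:30169446-30169551) follows 116 bases later, and Mir182 (chr6:30165918-30165992) lies a further 3453 bases on. The mature miR-183-5p maps to chr6:30169711-30169732 and miR-183-3p to chr6:30169672-30169693, on the 2 arms of 1 hairpin. The mature miR-96-5p maps to chr6:30169506-30169528 and miR-182-5p to chr6:30165962-30165986. The start of Mirc35hg is 4388 bases upstream of Mir183. Its promoter window, from 250 bases before to 50 bases after the start (chr6:30174076-30174375, minus strand), is shown because the cluster has been linked to TCF/LEF factors. Capitals mark the GC box letters GGGCGG on either strand.
Mirc35hg promoter: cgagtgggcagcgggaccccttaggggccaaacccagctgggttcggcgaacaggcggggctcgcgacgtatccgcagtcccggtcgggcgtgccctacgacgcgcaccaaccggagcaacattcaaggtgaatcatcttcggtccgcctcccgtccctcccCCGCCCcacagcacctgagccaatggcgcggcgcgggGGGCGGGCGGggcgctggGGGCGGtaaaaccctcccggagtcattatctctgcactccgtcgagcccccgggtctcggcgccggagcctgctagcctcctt

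The window was 70.3% G and C. It held GGGCGG at 3 places on its own strand, with overlaps, and at 1 on the other strand, and 35.7% of 32851 mouse promoter windows of this length held that motif. The TCF/LEF core letters CTTTGAT, found in 3.73% of windows, and CTTTGAA, found in 5.14%, had 0 matches on either strand. That says only that these letters are not in this window.

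miR-96-5p and miR-182-5p were well above the blank spots on every array. The spot intensity of miR-96-5p was 242.73 for the villus, 118.46 for the crypt, 131.63 for day 1 and 128.24 for day 5 organoids, in scanner units on a linear scale. These values lie 39.08, 50.03, 29.05 and 50.73 SDs of the blank spots above the blank mean. For miR-182-5p the intensities were 269.89, 123.83, 165.11 and 137.999, or 46.5, 55.3, 47.4 and 59.0 blank SDs above the blank mean. None of the 896 blank spots and none of the 32 negative-control spots of any array was as bright as either miRNA.

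The miR-183 arms were faint. miR-183-5p, the main arm of the first hairpin, had intensities of 112.58 for the villus, 72.229 for the crypt, 95.747 for day 1 and 77.377 for day 5, which is 3.30, 4.72, 9.40 and 7.84 blank SDs above the blank mean. On the villus array 15 of 896 blank spots were as bright, on the crypt array 1, and 0 on the organoid arrays. miR-183-3p, cut from the opposite arm, had 128.98, 71.331, 95.055 and 72.666, or 7.81, 3.84, 9.02 and 3.86 blank SDs above the mean. Both passed the detection limit (blank mean plus 2 SD) on all 4 arrays, and also a limit of 3 SD. On some arrays they did not stand clear of Negative Control 3, a control probe with 8 spots per array whose median intensity was 118.22 for the villus, 69.584 for the crypt, 107.37 for day 1 and 77.931 for day 5. Of its 8 spots, 8, 1, 8 and 6 were at least as bright as miR-183-5p, and 0, 1, 8 and 8 at least as bright as miR-183-3p, in the same order of arrays. On the day 1 array, neither miR-183 arm was brighter than any spot of this control.

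The remaining arms of the other hairpins gave little or no signal. miR-96-3p was below the detection limit on all 4 arrays. miR-182-3p passed it on the crypt array only, at 69.846 against a limit of 69.449, and missed the limit of 3 SD there.

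**Figure D1:**
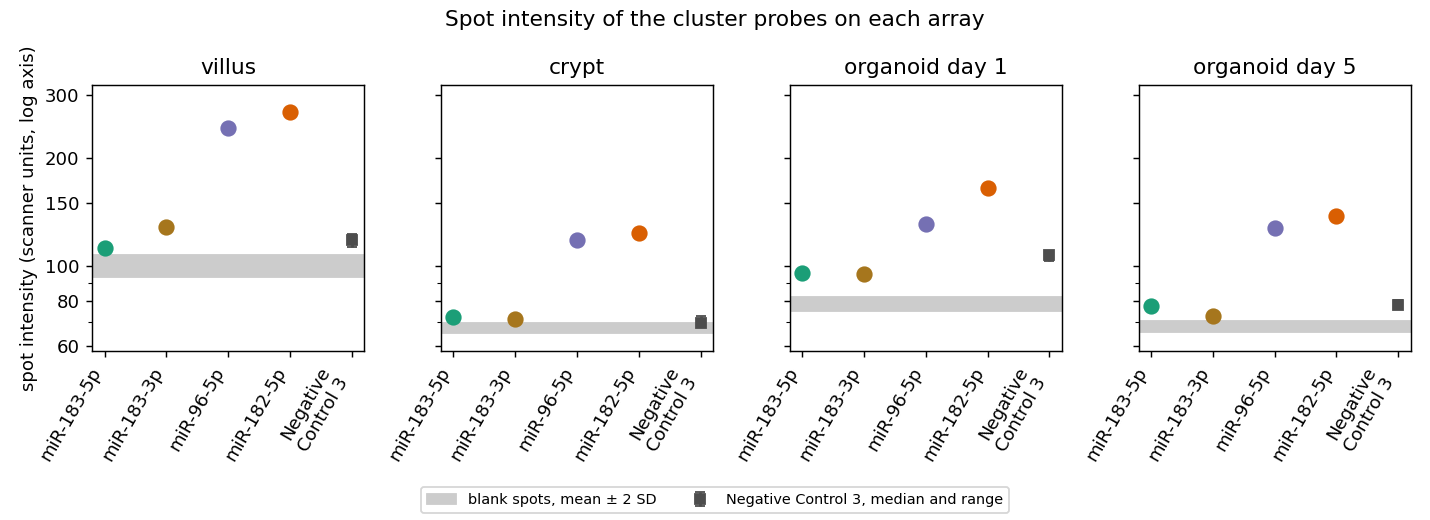
Spot intensity (scanner units, log axis) of each member on each array, 1 point per probe and array, beside blank spots (grey band, trimmed mean ± 2 SD) and Negative Control 3 (square, median, bars, lowest to highest of 8 spots). miR-96-5p and miR-182-5p sit far above both on every array, while miR-183-5p and miR-183-3p lie near the negative control.

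The arrays differed in overall brightness. Spike Control spots stood 28361 above the blanks for the villus, 8540 for the crypt, 16422 for day 1 and 8578 for day 5, and raw intensities therefore give no order of the samples. After background correction and quantile normalization, the log2 level of miR-96-5p was 7.88 for the crypt, 7.28 for day 5, 6.89 for the villus and 6.54 for day 1. That of miR-182-5p was 7.95, 7.42, 7.02 and 6.82 in the same order. With this processing, both miRNAs were thus highest in crypts, next in day 5 organoids, then in villi, and lowest in day 1 organoids. Moving each spot by 2 blank SDs either way left all 4 arrays apart in this order for both miRNAs. This interval covers noise near background only, not the spread between arrays, which the design cannot give.

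The level of miR-183-5p was 5.96 for the villus, 6.20 for the crypt, 6.10 for day 1 and 6.24 for day 5, and that of miR-183-3p was 6.12, 6.13, 6.09 and 6.07. Negative Control 3 had 6.01 ± 0.029, 6.03 ± 0.098, 6.25 ± 0.032 and 6.26 ± 0.038 (mean ± SD, n = 8 spots). Moving the spots by 2 blank SDs gave overlapping ranges of miR-183-3p on all 4 arrays. For miR-183-5p the ranges of neighbouring arrays overlapped, except that the villus array lay below the other 3. The offset of 50 in the background correction compresses differences of spots this faint towards 0.

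**Figure D2:**
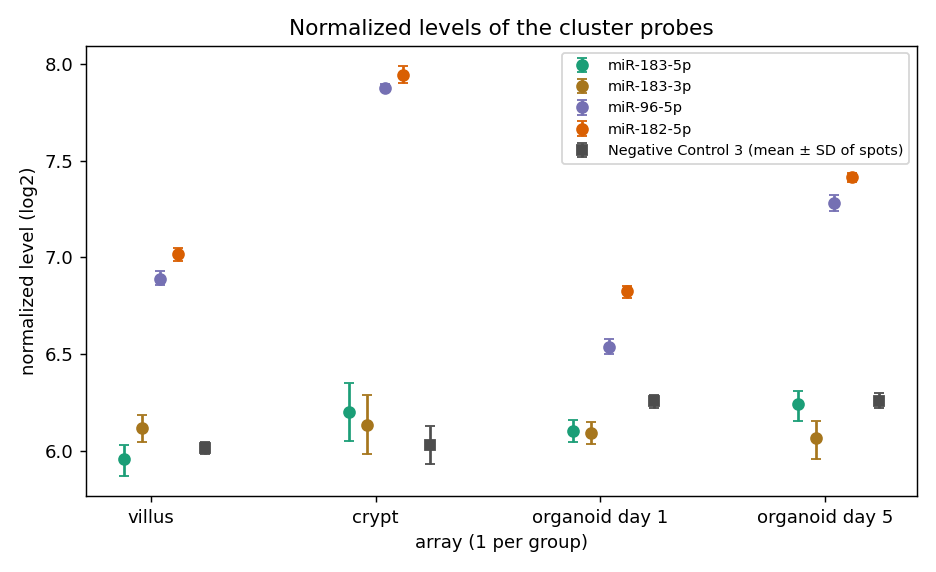
Normalized log2 level of each member on each array (1 array per group), with bars for the spot moved by 2 blank SDs either way. miR-96-5p and miR-182-5p follow the same order, from 7.88 and 7.95 on the crypt array to 6.54 and 6.82 on the day 1 array, while both miR-183 arms stay between 5.96 and 6.24, near Negative Control 3 (mean ± SD of 8 spots).

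By label, the comparison of villus with crypt sets the differentiated compartment of the intestine's lining against the dividing one. The villus array also held bright miRNAs of other tissues, so the contrast is not one within epithelium alone. miR-96-5p and miR-182-5p were both close to 2-fold lower on the villus array. The log2 difference, villus minus crypt, was -0.99 for miR-96-5p (-1.04 to -0.94 with each spot moved by 2 blank SDs) and -0.93 for miR-182-5p (-1.01 to -0.85). The faint arms had -0.24 for miR-183-5p (-0.48 to -0.021) and -0.017 for miR-183-3p (-0.24 to 0.20). All 4 values were below 0, with a median of -0.59 against -0.026 over the 1213 miRNAs detected on both arrays.

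Called means at least 2-fold. For villus minus crypt, 0 of 4 members were called in either direction, against 3.84% of tested miRNAs called higher and 3.33% called lower. miR-96-5p missed that limit at 1.99-fold. A difference at least as far below 0 as that of miR-96-5p was found for 4.45% of the miRNAs detected on both arrays, and 4.78% reached that of miR-182-5p. On the same scale, 3 control probes with 8 spots each, named S-Probe26, S-Probe27 and S-Probe28, had -1.18, -0.97 and -1.25. The sources used here do not name their targets. Their part in the differences of miR-96-5p and miR-182-5p was not tested.

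The direction of this comparison rested on the scaling. Scaled to the median of the miRNA probes in place of quantile normalization, miR-96-5p had 0.23 and miR-182-5p 0.34, where the median of all miRNAs was itself 0.33. In the other 11 of 12 settings tried both were lower on the villus array. Relative to the median of all miRNAs under each setting, miR-96-5p lay between -1.53 and -0.0095, and miR-182-5p between -1.38 and 0.010. miR-183-5p was lower on the villus array in all 12 settings, between -1.69 and -0.18, with the limit on its signal given above.

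RNA of other tissues also differed between these arrays. Of the listed mesenchymal and muscle miRNAs, 7 of 7 were called higher in the villus, beside 3.84% of all tested miRNAs. Their summed intensity above blanks was 24072 against 105 on the crypt array. Of the leukocyte miRNAs 3 of 5 were called higher, with a sum of 1612 against 28.3. Red blood cell miRNAs summed to 2132 against 13.7 and endothelial miRNAs to 665 against 6.92. On the organoid arrays the mesenchymal sum was 128.5 on day 1 and 52.1 on day 5. The 8 epithelial miRNAs were all below 0 in villus minus crypt, from -1.65 to -0.62 with a median of -1.44. Of them 6 were called lower, beside 3.33% of all tested miRNAs. Their median lay further below 0 than miR-96-5p and miR-182-5p. The part of other tissues' RNA and of the epithelial share in the lower villus level of both miRNAs was not tested.

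Day 1 organoids against crypts asks what the first day of culture does to the cluster. In the main setting this was the only comparison in which members passed 2-fold: miR-96-5p was 2.54-fold lower in day 1 organoids (log2 difference -1.34, -1.40 to -1.29) and miR-182-5p 2.18-fold lower (-1.12, -1.20 to -1.05). miR-183-5p had -0.097 (-0.30 to 0.11) and miR-183-3p -0.042 (-0.25 to 0.17), and both of these ranges include 0. So 2 of 4 members were called lower and 0 higher, against 6.19% and 5.19% of all tested miRNAs. Of 1226 miRNAs detected on both arrays, 5.71% lay at least as far below 0 as miR-96-5p and 7.10% as far as miR-182-5p, inside a distribution whose 5th and 95th percentiles were -1.44 and 1.23.

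Both calls were lost, leaving 0 members at 2-fold, with the background column subtracted, with scaling to the median and with scaling to the 75th percentile. Spike Control scaling lost both as well, with -0.89 for miR-96-5p and -0.33 for miR-182-5p. The 1 member at 2-fold there was the faint miR-183-3p, higher on the day 1 array (1.13). The S-Probe controls had -1.31, -1.08 and -0.92 here, close to the values of both miRNAs. Scaled to 8 epithelial miRNAs, which themselves had values from -2.53 to -2.14 in the main setting, the direction turned: miR-96-5p had 0.28 and miR-182-5p 0.84. The median of all miRNAs was 2.63 under that scaling. Relative to all miRNAs, miR-96-5p and miR-182-5p were lower on the day 1 array in all 12 settings, from -2.47 to -0.043 and from -1.88 to -0.26.

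Between day 1 and day 5 of culture, when organoids grow and form crypt-like buds, miR-96-5p and miR-182-5p were higher at day 5. miR-96-5p was 1.68-fold higher (log2 difference, day 5 minus day 1, 0.75, 0.66 to 0.82) and miR-182-5p 1.51-fold higher (0.59, 0.54 to 0.65). miR-183-5p had 0.14 (-0.0031 to 0.26) and miR-183-3p -0.026 (-0.19 to 0.12). None of the 4 members reached 2-fold, and few miRNAs did: 0.319% were called higher and 0.892% lower. Of 1346 miRNAs detected on both arrays, 20 were at least as far above 0 as miR-96-5p (1.49%) and 37 as far as miR-182-5p (2.75%), with a 95th percentile of 0.43. The S-Probe controls had 0.30, 0.12 and 0.13, less than either miRNA. The 8 epithelial miRNAs were all above 0, from 0.17 to 0.81 with a median of 0.69, about as far as miR-96-5p and miR-182-5p, and their part in the difference was not tested.

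miR-96-5p was higher at day 5 in all 11 settings tried, from 0.42 to 1.55. miR-182-5p was higher in 10 of 11, up to 1.08, the exception being subtraction of the column named as background, which gave -0.28. At the villus spot of miR-182-5p that column read 278.67, above the spot's own 269.89.

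For miR-96-5p and miR-182-5p, day 5 organoids stood between day 1 organoids and crypts. miR-183-5p was highest in day 5 organoids (6.24 against 6.20 in crypts) and miR-183-3p lowest there (6.07), in both cases with ranges that overlapped those of the crypt array. The difference, day 5 minus crypt, was -0.60 for miR-96-5p (-0.66 to -0.55), -0.53 for miR-182-5p (-0.60 to -0.47), 0.041 for miR-183-5p and -0.068 for miR-183-3p. Of the 4 members 0 were called, against 4.37% of miRNAs called higher and 5.12% lower. The S-Probe controls lay further below 0, at -1.01, -0.96 and -0.78. The direction was not stable: miR-96-5p kept it in 7 of 11 settings and miR-182-5p in 8 of 11. With epithelial scaling they had 1.01 and 1.08, where the median of all miRNAs was 1.72. Relative to all miRNAs, miR-96-5p was below 0 in 10 of 11 settings, from -0.91 to 0.37. miR-182-5p was so in 9 of 11, from -1.18 to 0.0098.

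Organoids were then set against the villus. In day 1 organoids miR-96-5p was lower by a log2 difference of -0.35 (-0.43 to -0.28) and miR-182-5p by -0.19 (-0.26 to -0.13). Neither these nor miR-183-5p (0.14) and miR-183-3p (-0.026) were called, against 3.37% of miRNAs called higher and 5.02% lower. In day 5 organoids both were higher than in the villus, miR-96-5p by 0.39 (0.31 to 0.47) and miR-182-5p by 0.40 (0.34 to 0.46). miR-183-5p had 0.28 (0.13 to 0.44) and miR-183-3p -0.052. Again 0 of 4 members were called, against 2.79% called higher and 4.61% lower. Negative Control 3 had 0.24 in the first of these comparisons and 0.25 in the second, close to the values of miR-183-5p. The S-Probe controls had -0.13, -0.11 and 0.34 in the first. In the second they had 0.17, 0.015 and 0.47, a range that holds the values of miR-96-5p and miR-182-5p. Directions turned under some settings. Scaled to the median, day 5 minus villus was -0.18 for miR-96-5p and -0.24 for miR-182-5p. Day 1 minus villus was 0.41 and 0.87 with epithelial scaling, and 0.47 for miR-182-5p with the background column subtracted.

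**Figure D3:**
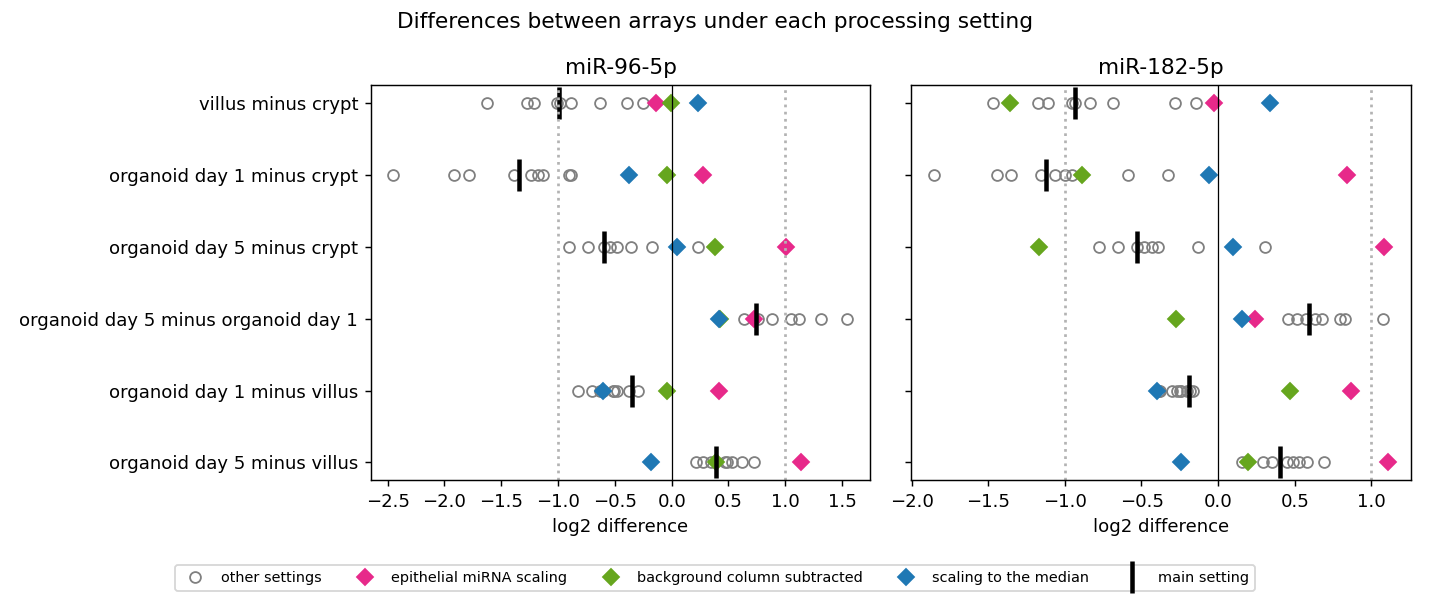
Log2 difference of miR-96-5p (left) and miR-182-5p (right) in each pair of arrays under each processing setting. Black bars mark the main setting, coloured diamonds the 3 settings that turned most directions, open circles the others, and dotted lines 2-fold. Day 5 minus day 1 is above 0 for miR-96-5p in every setting, and villus minus crypt turns above 0 with scaling to the median.

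Whether the members moved together depends on which are asked about. miR-96-5p and miR-182-5p did: their order of arrays was the same, and their differences lay within 0.22 of each other in all pairs. That order was not particular to them. From crypt over day 5 and villus to day 1, S-Probe26 had 11.43, 10.42, 10.25 and 10.12, and S-Probe27 9.62, 8.67, 8.65 and 8.54. The miR-106b-25 members and, but for miR-19b-3p, the miR-17-92 members also had this order. S-Probe28 did not, nor did the 8 epithelial miRNAs, which were all lower in day 5 organoids than in the villus. The 6 pairs come from 4 arrays and hold only 3 independent differences. The widest gap was in day 1 minus crypt (-0.22, miR-96-5p minus miR-182-5p) and the narrowest in day 5 minus villus (-0.0072). For comparison, the median spot-to-spot SD of 22 control probes on an array ran from 0.045 to 0.10. After each profile was centred over the 4 arrays, the root mean square distance between miR-96-5p and miR-182-5p was 0.0817. The distance between the miR-183 arms was 0.12, and those between a miR-183 arm and miR-96-5p or miR-182-5p ran from 0.37 to 0.49.

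The likeness of miR-96-5p and miR-182-5p was kept under most settings. They moved the same way in all pairs under 11 of 12 other settings, with gaps of up to 0.59. With the background column subtracted they did so in 3 of 6 pairs, with a gap of up to 1.55. Their order of arrays was as in the main setting in 6 of 10 other settings that cover all 4 arrays. The day 1 array was lowest for miR-96-5p in 9 of 10 and for miR-182-5p in 8 of 10. The crypt array was highest for miR-96-5p in 6 of 10 and for miR-182-5p in 7 of 10. The day 5 array was highest in 3 and 2 of them.

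In most pairs the miR-183 arms did not show the same movement, at levels where it could hardly be seen. Between miR-183-5p, miR-96-5p and miR-182-5p the differences spanned 0.75 in villus minus crypt, 1.25 in day 1 minus crypt, 0.64 in day 5 minus crypt, 0.61 in day 5 minus day 1 and 0.50 in day 1 minus villus. In day 5 minus villus they spanned 0.12, and there miR-183-5p (0.28) lay near miR-96-5p (0.39) and miR-182-5p (0.40). With the blank mean subtracted in place of normexp, which does not compress faint spots, miR-183-5p had -1.69 for villus minus crypt, beside -1.62 for miR-96-5p and -1.47 for miR-182-5p. In day 1 minus crypt that setting gave -0.50, beside -2.45 and -1.85, and in day 5 minus day 1 it gave 0.68, beside 1.55 and 1.08. The villus value of miR-183-5p rests on a signal only 12.02 units above a blank mean of 100.56, where the blank SD was 3.64.

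Other clusters made from 1 transcript give a scale for these spans. Of 12 such clusters, with the 5p or 3p arm that is usually measured, 3 had a wider span than miR-183-5p, miR-96-5p and miR-182-5p in villus minus crypt, where the median span was 0.31. In day 1 minus crypt 1 of 12 was wider, the proliferation-linked miR-17-92 cluster, whose span rounds to the same 1.25, and the median was 0.41. In day 5 minus day 1 1 of 11 was wider, again miR-17-92 (0.77), with a median of 0.40. More clusters were wider in the other pairs: 4 of 11 in day 5 minus crypt, 4 of 12 in day 1 minus villus and 9 of 11 in day 5 minus villus, where the median span was 0.28. The gap between miR-96-5p and miR-182-5p alone was narrower than the span of 12 of 12, 9 of 12 and 7 of 11 clusters in villus minus crypt, day 1 minus crypt and day 5 minus day 1. Of the 5 clusters with 3 or more members, 2 were wider in villus minus crypt, 1 in day 1 minus crypt and 1 in day 5 minus day 1. In day 5 minus crypt 2 of these 5 were wider, in day 1 minus villus 3, and in day 5 minus villus 4. The clusters differ in number of members and in brightness, and several members are encoded at more than 1 locus, so the spans are a description.

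**Figure D4:**
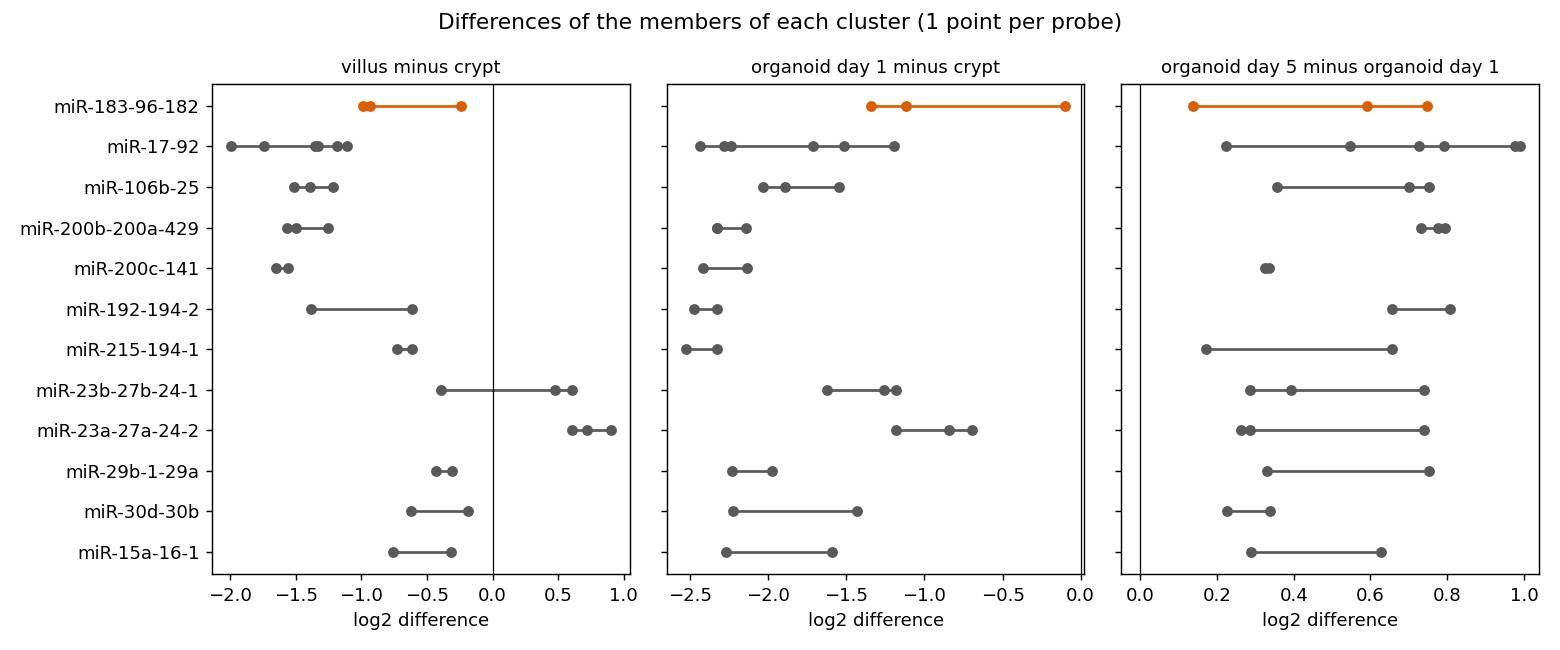
Log2 differences of miR-183-5p, miR-96-5p and miR-182-5p (orange) and of 11 other clusters (grey) in 3 pairs of arrays. Each probe is 1 point, with a line over the range of its cluster. miR-143 with miR-145 is left out of all 3 panels, since neither was detected on the day 5 array. miR-96-5p and miR-182-5p lie together and, of the 3 orange points, miR-183-5p lies nearest 0 in each panel. miR-183-3p is not drawn and was nearer 0 in each of these pairs.

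Other miRNAs linked to Wnt and beta-catenin signalling give the setting. Of 16 listed, 15 were detected on the villus or crypt array, and 6 of them were called lower in the villus, beside 3.33% of all tested miRNAs, and 0 higher. These 6 were the members of miR-17-92, whose transcript is driven by Myc, itself a Wnt target. The list median was -0.72, from -1.99 for miR-17-5p to 0.098 for miR-574-5p. In day 1 minus crypt 9 of 14 were called lower, beside 6.19% of all, and 0 higher, with a median of -1.25, from -2.44 for miR-17-5p to 0.33 for miR-574-5p. In day 5 minus day 1 0 of 12 were called, beside 0.319% of all called higher and 0.892% lower, with a median of 0.45, from -0.27 for miR-31-5p to 0.99 for miR-20a-5p. miR-96-5p and miR-182-5p lay on the same side of 0 as these medians in all 3 comparisons. So did the medians of the 8 epithelial miRNAs (-1.44, -2.33 and 0.69) and each S-Probe control. The shared side was thus not particular to the Wnt-linked list, and a part of Wnt signalling was not tested.

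The miRNAs with the most similar profiles over the 4 arrays were then listed, among 1143 detected on all of them. Nearest to miR-96-5p were miR-18a-5p of the miR-17-92 cluster (root mean square distance 0.0762), miR-182-5p itself (0.0817) and miR-15b-5p (0.0942). Nearest to miR-182-5p were miR-221-3p (0.0629), miR-18b-5p (0.0711) and miR-96-5p (0.0817). The distance between miR-96-5p and miR-182-5p was thus among the 3 smallest for each of them. Nearest to miR-183-5p were miR-26b-3p, miR-7228-3p and miR-7028-3p (0.0132 to 0.0225), and nearest to miR-183-3p were miR-6369, miR-7237-5p and miR-7212-3p (0.0141 to 0.0154). The mean profile of the members, compared with 1140 miRNAs, lay nearest miR-3090-3p (0.0546), miR-6715-5p (0.0610) and miR-34a-5p (0.0626). With 4 arrays, such a profile has only 3 free values.

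Endocrine markers were compared because the cluster is known from sensory and neuroendocrine cells. miR-375-3p, abundant in gut endocrine cells, had -1.18 between villus and crypt, -1.40 between day 1 and crypt and 0.34 between day 5 and day 1. miR-7a-5p had -1.27, -1.29 and 0.90 in the same order, and miR-7b-5p -0.25, -0.39 and 0.20. miR-375-3p and miR-7a-5p were called lower in the first 2 comparisons, beside 3.33% and 6.19% of all tested miRNAs. miR-96-5p and miR-182-5p were also below 0 there. Of the 8 epithelial miRNAs, 6 and 8 were called lower in the same comparisons, so the direction was not particular to endocrine markers.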

How the data were processed

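Total RNA of 4 samples was measured on 1-colour arrays read at 635 nm. Per the file headers, the deposited scanner tables give linear spot intensities, medians that the authors combined from 3 gains by straight-line fits. The deposited value table holds intensity values that are a straight-line function of those medians, each column with a median of 25.0, and no entry below the blanks. Array maker, scanner and image software were not given in the sources used here.

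Spot intensities were corrected with normexp (offset 50, limma 3.58.1, R 4.3.3), fitted on all 3200 spots, converted to log2, then quantile normalized over 1897 miRNA probes (1900 less 3 marked by the scanner software), since the deposited intensities are not on a log2 scale. The column named as background followed its own spot's brightness, so it was used only as an alternative. A probe was detected when its spot exceeded the mean of the 896 blank spots (less 5% at each end) by 2 of their SDs; 1507, 1269, 1556 and 1359 probes passed on the villus, crypt, day 1 and day 5 arrays. A miRNA was tested where either array detected it and called at 2-fold; where only 1 array detected it, the difference is a bound. Intervals move both spots by 2 blank SDs. With 1 array per group the number of arrays limits the precision, and no test was run. Normalization and subtraction of levels were tried on simulated arrays with known changes, placed only in probes well above the blanks. Detection and calling were not part of that trial, and it does not cover spots as faint as the miR-183 arms. Lists of 12 clusters, 16 Wnt-linked miRNAs and 7 sets of cell type markers were used, and tables were made with pandas 2.3.3 and numpy 2.4.6. The markers of neural cells were near background: 3 of 4 were detected on the villus array and 2 on each other array, with sums of 122, 10.6, 24.5 and 13.9. Named miRNAs were the members, their other arms, same-seed miRNAs, the 3 nearest profiles and the extremes of each list. Members, lists, rules and the use of spot intensity alone were chosen with earlier results of these data known. All 6 arms were matched by name to RefSeq sequences.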

Additional observations from a re-analysis of the deposited data

How the results depend on the processing

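Medians below are of the log2 differences of the 4 members, first array named less the second, and counts are of members at least 2-fold apart. The main medians were -0.59 for villus against crypt, -0.61 for day 1 against crypt, -0.30 for day 5 against crypt, 0.36 for day 5 against day 1, -0.11 for day 1 against villus and 0.34 for day 5 against villus, with counts of 0, 2, 0, 0, 0 and 0. Values that moved are given here, and the cause was not tested. With the background column subtracted, the medians in this order were -0.13, -0.055, -0.050, -0.086, 0.075 and 0.12, with counts of 1 for villus against crypt, 0 for day 1 against crypt and 1 for day 5 against crypt. Subtracting the blank mean gave -1.55, -1.18, -0.60, 0.88, -0.27 and 0.71, with counts of 3 for villus against crypt, 2 for day 5 against day 1, 1 for day 1 against villus and 1 for day 5 against villus. An offset of 16 gave -0.82 for villus against crypt (count 2), -0.81 for day 1 against crypt, 0.52 for day 5 against day 1 (count 1) and 0.53 for day 5 against villus. Scaling to the median gave 0.073 for villus against crypt, -0.097 for day 1 against crypt (count 0), 0.043 for day 5 against crypt, 0.15 for day 5 against day 1 and -0.075 for day 5 against villus. At the 75th percentile only counts moved, to 1 for villus against crypt and 0 for day 1 against crypt. Spike Control scaling gave -0.20 for villus against crypt (count 1), 0.28 for day 1 against crypt (count 1), 0.27 for day 5 against crypt and 0.47 for day 5 against villus (count 1), with counts of 1 for day 5 against day 1 and 1 for day 1 against villus. Epithelial scaling gave -0.080 for villus against crypt (count 1), 1.45 for day 1 against crypt, 1.04 for day 5 against crypt (count 3), -0.050 for day 5 against day 1 (count 1), 0.96 for day 1 against villus (count 2) and 1.12 for day 5 against villus (count 3). There miR-96-5p had 0.28 and miR-182-5p 0.84 for day 1 against crypt, against -1.34 and -1.12. The 2 members at least 2-fold apart in that case were the faint miR-183-5p (2.06) and miR-183-3p (2.29), both higher on the day 1 array. Cyclic loess gave -0.43 for villus against crypt and -0.22 for day 1 against villus. Quantile normalization without the day 5 array gave a count of 1 for villus against crypt, and over only the arrays compared a count of 1 for day 1 against crypt. The deposited values gave -1.16 for villus against crypt (count 3), -0.56 for day 5 against crypt, 0.54 for day 5 against day 1 (count 1) and 0.60 for day 5 against villus (count 1), and a count of 1 for day 1 against villus. Detection at 3 SD, or above the highest trimmed blank spot, changed none of these medians and counts.

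Scalings also shifted all miRNAs: for villus against crypt the median over miRNAs detected on both arrays was 1.23 with Spike Control, 1.35 with epithelial, 0.33 with median and -0.29 with 75th percentile scaling, and 0.27 in the deposited values. The 2 scalings after normexp give equal values relative to all miRNAs, as do Spike Control and epithelial scaling, so they are not separate checks. Faint signal limits both miR-183 arms. No paired analysis was possible because each group had 1 array.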

Other observations

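At 2 member spots the column named as background exceeded the spot itself, both on the villus array: the spot less the column was -2.61 for miR-183-5p (column 115.18) and -8.78 for miR-182-5p (column 278.67). At the crypt spot of miR-96-5p the column was 108.63 against a spot of 118.46, a difference of 9.83, while at the crypt spot of miR-182-5p it was 78.451 against 123.83. In the authors' deposited table, miR-96-5p had 64.4 for the villus, 149.4 for the crypt, 39.7 for day 1 and 98.7 for day 5, and miR-182-5p had 76.7, 165.2, 64.7 and 114.7, in intensity units scaled to 1 median for all columns. The same table had 5.4, 14.1, 12.8 and 15.2 for miR-183-5p and 12.9, 11.5, 12.3 and 7.5 for miR-183-3p. The S-Probe controls, which hold 8 spots each, fell in villus minus crypt after quantile normalization although their raw mean intensities were higher on the villus array: 3043.5 against 951.75 for S-Probe26, 914.63 against 318.97 for S-Probe27 and 9547.1 against 2850.8 for S-Probe28. miR-96-5p and miR-182-5p were likewise brighter on the villus array before normalization, at 242.73 against 118.46 and 269.89 against 123.83.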
